A study of Mus musculus with 23 samples.

Results

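The genes described here are those whose mRNA was highest in neutrophils of the peripheral blood (PB). They were chosen by their values in neutrophils sorted from lung, PB and bone marrow (BM) of WT mice. A gene was a member when its blood mean over 3 libraries was at least 5 FPKM (fragments per kilobase of transcript, scaled to the mapped fragments of the library) and the blood mean plus 1 was at least 2 times both the lung mean plus 1 and the BM mean plus 1. Of 21878 genes, 5031 reached the blood level and 169 met both conditions. Of these, 8 belonged to gene families that the rule left out (*Arhgap5*, *Mrps15*, *Mrps24*, *Slc25a30*, *Slc35e4*, *Slc40a1*, *Slc43a2* and *Slco4a1*), which gave 161 members. Their levels in those 9 libraries are a description without a test. The comparisons tested below used other libraries.

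Bulk RNA-Seq of 3 experiments was available. The tissue comparison held CD45+CD11b+Ly6G+ neutrophils of WT C57BL/6J mice from lung, PB and BM, with 3 libraries each. In the *Piezo1* experiment, lung and PB neutrophils came from WT mice and from *Piezo1*-cKO mice, with 2 libraries per group. The *Piezo1*-cKO mice carry *Piezo1* alleles with loxP sites around exons 20 to 23 (*Piezo1* fl/fl) and the Cre recombinase of Vav1-iCre, which is active across blood cells and not only in neutrophils. The third experiment was whole lung of mice given anti-Ly6G antibody or an isotype control, with 3 libraries each. The labels call its control mice WT and give no genotype for the depleted mice. Mice were in general 7 to 12 weeks old and of either sex, with no age given for whole lung. For the tissue comparison a figure legend of the paper counts mice, as many as the libraries of each tissue. For the *Piezo1* experiment and whole lung the number of mice behind a library was not stated. The p-values there measure the spread between libraries, which may be technical. Lung neutrophils, unlike those of PB and BM, came from enzyme-digested tissue, and PB and lung cells, unlike BM cells, passed a negative selection before sorting, so that tissue and preparation cannot be told apart.

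Neutrophils are made in the BM, circulate in the blood for hours and reside in part in the narrow capillaries of the lung. PIEZO1 is a cation channel of the plasma membrane that opens under mechanical force. Among gene groups that respond quickly in such cells are the immediate early genes, which are switched on within minutes of a stimulus, and the interferon-stimulated genes, which encode antiviral and antimicrobial proteins.

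Libraries of the tissue comparison held 16502148 to 19330774 recovered reads, and those of the *Piezo1* experiment 9621120 to 15034817. PB replicate 3 stood apart from the other PB libraries of the tissue comparison. Its reads differed from theirs by a median squared deviation 8.03 and 10.9 times the counting error, against 1.99 to 3.01 for the other pairs of that experiment and 1.65 to 2.33 for the replicate pairs of the *Piezo1* experiment. Without that library the rule found 162 genes, of which 147 were among the 161. All 8 neutrophil markers were expressed in every sorted group, and NK cell and basophil markers summed to at most 0.685 FPKM in any sorted library. In the tissue comparison the sum of the 5 eosinophil markers was highest in PB, like the members. It was 18.8 to 20.7 FPKM in PB, 12.9 to 14.3 in lung and 7.32 to 8.38 in BM. *Siglecf* made most of it, with means of 17.9, 12.7 and 6.97 FPKM in the same order. A mean below 1 FPKM was found for 3 of the 5 in PB and for 4 in lung and in BM. Monocyte and macrophage markers summed to 333 to 364 FPKM in PB, 635 to 642 in lung and 668 to 803 in BM, with *Csf1r*, *Nr4a1* and *Ly6c2* as the highest in turn, and 6 of the 10 had a mean below 1 FPKM in each tissue. The part of these cells in the members' levels was not tested. In bulk samples, fewer cells of a type and less RNA per cell cannot be told apart.

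*Piezo1* itself was read too thinly to check the genotype. In PB it had 5 and 5 reads in the WT and 3 and 10 in the *Piezo1*-cKO libraries, and in lung it had 8 and 8 in the WT and 7 and 4 in the *Piezo1*-cKO libraries. It was below the filter of the tests. In the tissue comparison it had 34 to 61 reads in lung, 44 to 71 in PB and 200 to 227 in BM. These are reads over the whole gene, so they cannot show whether exons 20 to 23 were deleted.

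In every one of the 161 genes the lowest blood library lay above the highest lung and BM library. The rule, which asked for at least 2 times both other tissues, nearly fixed this. Blood means ran from 5.13 to 1125 FPKM with a median of 29.9, and 28 members reached 100 FPKM while 29 were below 10. The ratio of the blood level to the next tissue had a median of 2.25 and reached 5.53 in *Klf2*, and 25 members had a ratio of at least 3. BM was the next highest tissue in 93 members and lung in 68. The coefficient of variation of the 3 blood libraries had a median of 5.82%, and 15 members exceeded 20%. At the ratio threshold *Rassf1*, *Alkbh5* and *Nfatc1* lay just inside, with ratios of 2.0029, 2.003 and 2.0041. *Ptger2*, *Tgfb1* and *Tctn1* lay just outside, at 1.9959, 1.9949 and 1.9922. At the level threshold *Ifit1bl1*, *Gnmt* and *Wfdc18* lay inside at 5.13, 5.19 and 5.24 FPKM. *Cxcr3*, *Ptgfrn* and *Atp5sl* lay outside at 4.9977, 4.77 and 4.76 FPKM.

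The choice of scale weighed on membership. When FPKM were rescaled by the median ratio between libraries, the rule found 87 genes, of which 69 were among the 161. The members' median ratio was then 1.90, and the lowest was 1.28, so that blood stayed the highest tissue in all of them.

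Some members with a high level or ratio are transcriptional regulators, a role that the GO annotation did not show more often among members (below). *Klf2*, a Kruppel-like factor that holds leukocytes in a quiescent state, read 858, 851 and 800 FPKM in PB. Lung had 147, 153 and 151 FPKM, and BM had 104, 105 and 106. The choice of the genes fixed that blood lay above both other tissues, and every lung library lay above every BM library. *Tsc22d3*, which encodes the glucocorticoid-induced leucine zipper protein, read 404, 414 and 356 FPKM in PB, 108, 105 and 107 in lung and 90.3, 90.0 and 90.1 in BM. *Klf6*, a related factor, read 316, 317 and 320 FPKM in PB, 100, 99.8 and 99.7 in lung and 129 in each BM library. *Rara*, the retinoic acid receptor alpha, read 185, 184 and 175 FPKM in PB, 23.4, 23.5 and 22.8 in lung and 50.1, 50.8 and 49.8 in BM. Both kinds of order thus occurred, with lung second in *Klf2* and BM second in *Rara*.

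*Jun*, a subunit of the AP-1 transcription factor, read 257, 262 and 212 FPKM in PB, 63.6, 69.1 and 66.6 in lung and 38.9, 40.7 and 37.8 in BM. *Ier2*, another immediate early gene, read 898, 891 and 797 FPKM in PB, 388, 382 and 381 in lung and 260, 258 and 260 in BM. *Rhob*, a small GTPase, read 247, 250 and 247 FPKM in PB, 29.7, 29.1 and 31.4 in lung and 83.8, 88.7 and 88.5 in BM. These 5 genes (*Jun*, *Ier2*, *Klf2*, *Klf6* and *Rhob*) were the members among 30 immediate early genes, of which 22 reached a blood mean of 5 FPKM and 10 were highest in blood.

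The highest member was *Txnip*, the thioredoxin-interacting protein, with 1108, 1107 and 1158 FPKM in PB, 376, 374 and 377 in lung and 405, 405 and 409 in BM. *Fgl2*, a fibrinogen-like protein, read 611, 595 and 632 FPKM in PB and 295, 294 and 296 in lung, and 71.5, 74.5 and 73.7 in BM. *Phospho1*, a phosphatase, read 470, 451 and 596 FPKM in PB, 151, 156 and 151 in lung and 245, 257 and 253 in BM. The third PB library was thus the highest for *Phospho1*, and the lowest for *Jun* and *Tsc22d3*.

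*Rgs2*, which limits signals of G protein-coupled receptors, read 433, 428 and 441 FPKM in PB, 65.4, 60.0 and 62.4 in lung and 130, 126 and 130 in BM. *Gpr146*, a G protein-coupled receptor, read 29.3, 29.8 and 30.6 FPKM in PB, 1.42, 1.60 and 1.16 in lung and 7.94, 8.14 and 6.85 in BM. Both had their lowest level in lung. The others of the 15 highest were *Myadm*, *Zfp36l2*, *Oasl2*, *Myd88*, *Cd101* and *Ltb*, with lowest blood libraries between 233 and 431 FPKM. The remaining genes of the 15 largest ratios were *Spry2*, *Sema6b*, *Tmem140*, *Irf2bpl*, *Ifit3b*, *Abcg1*, *Mettl20*, *Amotl2* and *Lfng*, with ratios between 3.29 and 4.42.

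Further members, named after their values were seen, show the range of roles. *Dusp6*, a phosphatase that limits ERK signalling, read 143, 141 and 128 FPKM in PB, 45.4, 44.98 and 47.7 in lung and 58.2, 57.2 and 56.8 in BM. *Xpc*, a sensor of DNA damage, read 57.6, 58.7 and 54.9 FPKM in PB, 6.85, 6.91 and 7.19 in lung and 21.1, 23.1 and 22.3 in BM. That PB was the highest tissue in both was fixed by the rule.

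Some members are better known from other cells. *Krt7* and *Krt80*, both keratins, and *Scnn1a*, a subunit of the epithelial sodium channel, had lowest PB libraries of 7.90, 42.7 and 80.8 FPKM. Their highest lung libraries were 4.04, 21.2 and 41.2 FPKM. The 5 lung epithelial markers summed to 13.9 to 24.1 FPKM in PB, 5.38 to 6.36 in lung and 16.2 to 17.5 in BM, with *Ager* as the highest. *P2ry12*, an ADP receptor known from platelets, read 12.9, 12.2 and 13.2 FPKM in PB, 3.34, 3.42 and 2.67 in lung and 3.08, 3.78 and 3.43 in BM. The 11 platelet markers summed to 6.58 to 12.01 FPKM in PB, 9.70 to 10.8 in lung and 10.2 to 11.4 in BM. In the *Piezo1* experiment *P2ry12* was higher in PB by 2.13 ± 0.10 in WT mice. The platelet markers there summed to 2.91 to 3.47 FPKM in PB and 3.11 to 3.84 in lung, and 10 of the 11 had a mean below 1 FPKM in each. The part of epithelial cells or platelets in the levels of these members was not tested.

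**Figure D1:**
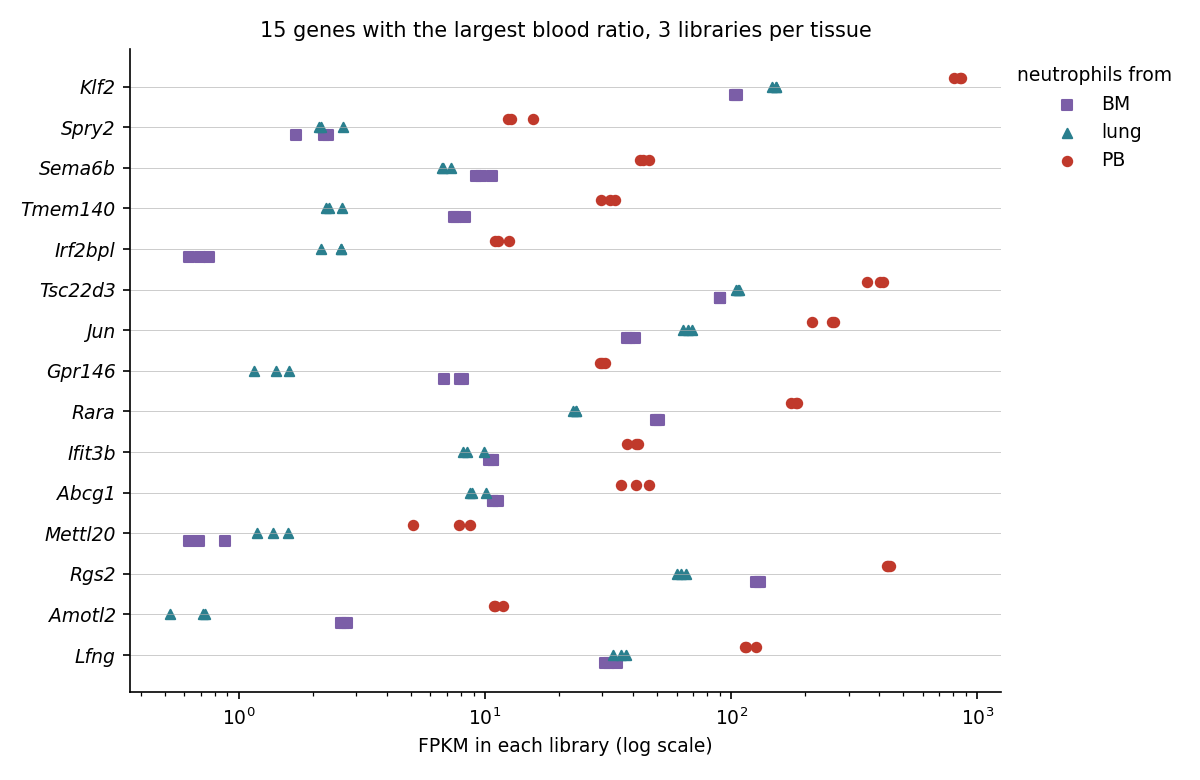
FPKM (log axis) of the 15 members with the largest blood ratio in each of the 3 PB, 3 lung and 3 BM libraries of the tissue comparison, one symbol per library. In every gene the 3 PB libraries lie to the right of all others, which the choice of the genes fixed, and whether lung or BM came second differed between genes.

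Interferon-stimulated genes were 9 of the 161: *Ifit1*, *Ifit2*, *Ifit3*, *Ifit3b*, *Oasl2*, *Irf1*, *Usp18*, *Gbp7* and *Slfn5*, from a list of 43. Besides these, *Irgm1*, *Irgm2*, *Igtp*, *Ifi47* and *Gm12250* were members, which belong to the interferon-inducible GTPases that act against intracellular microbes. These 5 are not the whole family and were grouped because they were members. In the deposited GO annotation, "defense response to virus" was the term of 10 members (6.21%), against 1.87% of the 5031 genes with a blood mean of at least 5 FPKM, and "innate immune response" of 10 members against 3.58%. "Apoptotic process" was the term of 11 members (6.83%, against 5.17%), and "vesicle-mediated transport" of 0 members, against 2.82%. "Regulation of transcription by RNA polymerase II" was the term of 4 members (2.48%, against 3.72%). These shares are descriptions.

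Some promoters of these genes are shown because they hold the letters by which interferon-activated factors are known to bind DNA. Windows of 250 bases before the gene start were read from RefSeq (GRCm38.p6), where 135 of 161 members matched. The letters GAAANNGAA, a core part of the classical interferon-stimulated response element, stood on either strand in 19 of 135 member promoters (14.1%), against 7.16% of 27025 promoters and 6.50% of 4121 promoters of genes with a blood mean of at least 5 FPKM. TTCNNNGAA, the palindromic letters of the gamma-activated site, stood in 15 (11.1%), against 7.18% and 5.48%. CACGTG, an E-box, stood in 19 (14.1%, against 6.05% and 9.37%), and TGACGTCA, the cAMP response element, in 3 (2.22%, against 1.62% and 3.03%). Of the interferon genes named above, *Oasl2* and *Ifi47* held neither of the first 2, and *Usp18* was not matched. A match is a description of the letters and not a bound site. Below, capitals mark GAAANNGAA or TTCNNNGAA, on either strand, and each run is written 5′ to 3′ on the strand of its gene.
Irgm2 (chr11:58214877-58214946, + strand): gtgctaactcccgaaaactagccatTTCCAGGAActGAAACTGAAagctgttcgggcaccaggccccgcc
Igtp (chr11:58199486-58199555, + strand): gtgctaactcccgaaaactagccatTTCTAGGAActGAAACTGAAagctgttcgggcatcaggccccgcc
Irgm1 (chr11:48871421-48871475, - strand): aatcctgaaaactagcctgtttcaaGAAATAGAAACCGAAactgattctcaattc
Ifit1 (chr19:34640755-34640838, + strand): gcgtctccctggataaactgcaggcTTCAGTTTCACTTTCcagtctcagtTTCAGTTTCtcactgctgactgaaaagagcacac
Ifit3 (chr19:34583351-34583460, + strand): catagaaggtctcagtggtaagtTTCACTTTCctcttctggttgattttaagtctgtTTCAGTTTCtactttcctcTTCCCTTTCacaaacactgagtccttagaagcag
Gbp7 (chr3:142530208-142530317, + strand): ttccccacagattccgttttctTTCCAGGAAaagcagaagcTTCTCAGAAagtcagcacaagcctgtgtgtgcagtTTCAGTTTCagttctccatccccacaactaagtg
Irf1 (chr11:53769899-53769957, + strand): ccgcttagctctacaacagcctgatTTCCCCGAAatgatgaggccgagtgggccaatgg

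The runs shown for *Irgm2* and *Igtp* were identical in 68 of 70 bases, and that of *Ifit3* occurs in the promoter of *Ifit3b* in 110 of 110 bases. *Ifit3* and *Ifit3b* are close paralogs between which the counting may split reads, so their levels are uncertain. *Irgm2* read 58.9, 58.9 and 55.3 FPKM in PB of the tissue comparison, 4.35, 4.21 and 4.04 in lung and 23.7, 23.8 and 25.7 in BM. *Igtp* read 42.5, 44.0 and 42.6 FPKM in PB, 8.88, 8.32 and 7.16 in lung and 19.0, 19.3 and 18.4 in BM. *Irf1*, a transcription factor of the interferon response whose window holds a gamma-activated letter match only, read 217, 220 and 207 FPKM in PB, 70.0, 72.4 and 69.8 in lung and 64.5, 64.3 and 66.1 in BM. All 3 had PB as the highest tissue, as the rule required of every member. Chromosome 11 held 24 members (14.9%), against 8.95% of the 5031 genes, and *Irgm1*, *Irgm2*, *Igtp*, *Ifi47*, *Gm12250*, *Irf1* and *Slfn5* are among those 24.

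Whether these genes were also higher in PB than in lung in other libraries was tested in the *Piezo1* experiment. In WT mice, 117 of 158 members tested (74.1%) were higher in PB, against a background of 26.5% of all 7143 genes, where a call needed a change of over 1 on the log2 scale and an adjusted p below 0.05 (limma-trend, Benjamini-Hochberg). None was lower, against 536 of the 7143 genes. With edgeR 1 was lower (*Krt7*), against 15.9% of all genes. Of the 158 members 157 lay above 0, against 78.8% of all genes. The median log2 fold change was 1.42 in members and 0.62 in all genes tested. Since the whole distribution lay above 0, FPKM were also rescaled by the median ratio. The median of all genes was then -0.01 and that of members 0.84, with 141 of 154 above 0 and 66 called (42.9%, against 9.20% of all genes). *Phospho1*, *Samd1* and *Kcnd1* were below the filter of at least 1 FPKM in 2 libraries. The filter let members pass through their PB level alone, so the counts are of the members tested. Cells other than neutrophils could enter either sort. MHC class II and dendritic cell markers summed to 282 to 293 FPKM in the WT lung libraries and 13.5 to 14.3 in WT PB, with *Cd74* as the highest. T cell markers summed to 2.36 to 3.09 in lung and 5.17 to 5.60 in PB. Higher in PB too were the sums of eosinophil markers (28.7 to 29.4 FPKM against 14.1 to 14.4 in lung), erythroid markers (25.7 to 27.7 against 5.88 to 6.37), neutrophil markers (134974 to 138678 against 90671 to 94101) and granule genes of immature neutrophils (3957 to 3968 against 2426 to 2457). Monocyte and macrophage markers were lower in PB, at 392.3 to 393.4 FPKM against 863 to 866. The highest of them was *Ly6c2* in WT PB, with a mean of 179 FPKM, and *Nr4a1* in WT lung, with 651. The part of any of these marker groups in the differences was not tested.

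The largest difference was that of *Gpr146*. It read 40.5 and 40.4 FPKM in WT PB and 1.51 and 1.42 in WT lung, a log2 fold change of 4.07 ± 0.07 (SE, adjusted p = 5.4e-09). *Jun* read 146 and 144 FPKM in PB and 12.03 and 10.1 in lung, with a log2 fold change of 3.60 ± 0.07 (adjusted p = 1.5e-08). PB and lung libraries were far apart for both genes. *Irgm2* read 60.2 and 59.1 FPKM in PB against 3.90 and 4.66 in lung (3.53 ± 0.08, adjusted p = 2.4e-08). *Frat2*, a regulator of Wnt signalling, had a log2 fold change of 3.00 ± 0.07 and *Igtp* one of 2.96 ± 0.05. The latter 2 stood at 31.0 to 83.5 FPKM in PB and 2.95 to 9.99 in lung.

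*Klf2*, the member with the largest ratio in the tissue comparison, read 407 and 409 FPKM in WT PB and 98.1 and 104 in WT lung, a log2 fold change of 2.00 ± 0.03 (adjusted p = 5.8e-09). *Rgs2* read 979 and 986 FPKM in PB and 131 and 134 in lung (2.88 ± 0.02). *Tsc22d3* read 898 and 867 FPKM in PB and 137 and 133 in lung (2.70 ± 0.03). For these regulators the rule fixed the difference in the tissue comparison, so only the *Piezo1* experiment tested it, in other libraries. *Krt7*, a keratin, was the 1 member tested that lay below 0. It read 2.15 and 3.11 FPKM in WT PB and 3.34 and 3.40 in WT lung (-0.28 ± 0.13, adjusted p = 0.08). *Lfng*, a glycosyltransferase that modifies Notch, read 8.93 and 9.39 FPKM in PB and 7.35 and 6.99 in lung. Its log2 fold change was 0.31 as deposited and -0.33 after rescaling, and 13 members, *Krt7*, *Lfng*, *Clec4a1* and *Dctpp1* among them, were below 0 on the rescaled values.

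In *Piezo1*-cKO mice 107 of 155 members tested (69.0%) were higher in PB than in lung, against a background of 23%. None was lower, against 568 of 7163 genes. With edgeR 1 was lower (*Ipo7*), against 16.9% of all genes. The median log2 fold change was 1.31 in members and 0.54 in all genes, and 61 were called after rescaling (39.4%, against 8.01% of all genes). *Irgm2* had the largest difference (3.20 ± 0.10, adjusted p = 5.8e-07), with 63.5 and 65.9 FPKM in PB and 6.82 and 5.51 in lung. *Rhob* followed at 3.12 ± 0.17, with 48.4 and 54.7 FPKM in PB and 6.31 and 3.997 in lung. *Rgs2* (2.96 ± 0.04), *Pithd1* (2.91 ± 0.05) and *Gpr146* (2.90 ± 0.08) came next.

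As descriptions, the log2 ratio of PB to lung in the tissue comparison and the log2 fold change in WT mice of the *Piezo1* experiment had a Pearson r of 0.64 and a Spearman rho of 0.62 over 158 genes, and the base composition of a gene could enter both. Members whose next highest tissue was BM had a median of 1.69 in WT mice, with 78 of 92 called. Members whose next tissue was lung had 1.18, with 39 of 66 called. The rule itself put the former farther above lung.

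**Figure D2:**
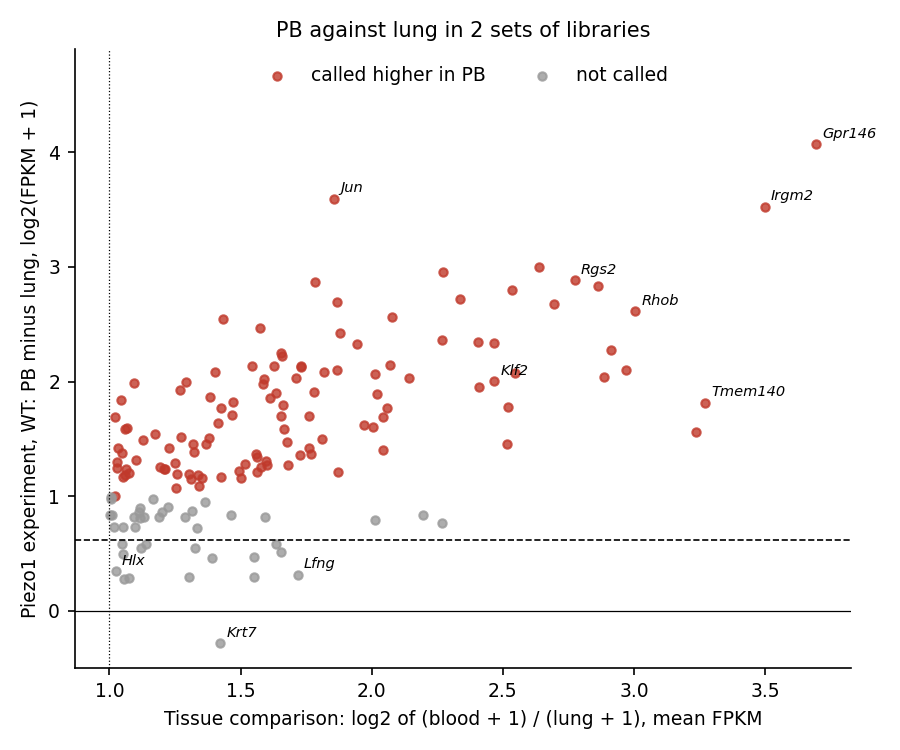
Each of 158 members by its log2 ratio of PB to lung in the tissue comparison (x axis, on mean FPKM plus 1) and its log2 fold change of PB against lung in WT mice of the *Piezo1* experiment (y axis, log2(FPKM + 1)). The dotted vertical line is the threshold of the rule and the dashed line the median of all genes tested (0.62), and 157 of 158 members lie above 0.

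By role, the immediate early genes moved in both directions between PB and lung, so the members do not stand for the list. In WT mice 4 of 26 tested were higher in PB and 9 lower, and the 4 were members (*Jun*, *Rhob*, *Klf6* and *Klf2*). *Ier2*, at 0.98 ± 0.02, was just under the fold threshold. In *Piezo1*-cKO mice 4 were higher and 12 lower. The median log2 fold change over the list was -0.52 in WT mice, and it was 2.23 over its 5 members.

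Of the interferon-stimulated genes tested, 18 of 39 were higher in WT PB and 1 lower, with a median of 0.95, and 8 of the 9 members were among the 18. *Usp18*, which removes ISG15 from proteins and limits interferon signalling, had the largest fold of these 9 at 2.33 ± 0.05 (48.0 and 48.9 FPKM in PB, 8.83 and 8.90 in lung). *Ifit3b* (2.14 ± 0.08) and *Irf1* (2.02 ± 0.03) came after it. *Slfn5* read 9.92 and 9.59 FPKM in PB and 4.47 and 4.70 in lung and stayed under the threshold (0.95 ± 0.07). In *Piezo1*-cKO mice 14 of 39 were higher in PB and 2 lower, with a median of 0.72. For the 5 interferon-inducible GTPases, grouped as members and so no evidence on their family, the median log2 fold change was 2.08 in WT and 2.17 in *Piezo1*-cKO mice.

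The members among 24 chemoattractant receptors were *Cxcr1*, a receptor for neutrophil-attracting chemokines, *C5ar2*, the second receptor for complement C5a, and *Gpr146*. All 3 were called higher in WT PB, *Cxcr1* at 1.00 ± 0.07 with 13.9 and 14.8 FPKM in PB and 6.54 and 6.75 in lung. Over the list, 8 of 19 tested were higher in WT PB and 5 lower. Among 35 cytokines and their receptors the 1 member was *Tnfsf14*, also called LIGHT. It read 242 and 233 FPKM in WT PB and 63.9 and 61.8 in lung (1.90 ± 0.03), while 4 of the 35 were higher in PB and 14 lower. *Ltb*, the lymphotoxin beta chain, stands outside that list and read 288 and 291 FPKM in WT PB and 78.9 and 84.1 in WT lung (1.82 ± 0.04).

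The members among 22 genes of apoptosis and survival were *Bid* and *Bbc3*, which promote cell death at the mitochondrion, and *Txnip*. *Bid* read 116 and 116 FPKM in WT PB and 20.5 and 21.2 in lung (2.42 ± 0.04). *Bbc3* read 8.88 and 8.74 against 1.61 and 1.61 FPKM (1.91 ± 0.08), and *Txnip* 625 and 623 against 260 and 261 (1.26 ± 0.02). All 3 were higher in PB, while the list split into 7 higher and 6 lower of 21 tested. None of the 161 was among the 18 adhesion genes, 35 pattern and Fc receptors, 25 lineage transcription factors or 17 clock genes. With 161 members among 5031 genes of a blood mean of at least 5 FPKM, few would fall in lists of this size. Of these lists 17, 33, 18 and 7 genes were tested in WT mice. In the same order 2, 6, 8 and 0 were higher in PB, against 26.5% of all genes, and 1, 4, 3 and 2 were lower.

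Between genotypes, few of these genes passed the fold threshold in PB. There, 2 of 158 members tested were higher in *Piezo1*-cKO than in WT mice, against a background of 1.68%, and 0 were lower, against 1.97%. At an unadjusted p below 0.05, 62 were higher (39.2%, against 30.2% of all genes) and 34 lower (21.5%, against 26.7%). With edgeR on recovered reads 4 were higher (2.53%, against 4.603%) and 3 lower (1.90%, against 5.58%). The median log2 fold change was 0.06 in members and 0.02 in all genes. By the adjusted p alone 56 members were higher (background 26.5%) and 30 lower (23.2%).

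The 2 that passed were *Krt7* and *Clec4a1*, a C-type lectin receptor of myeloid cells. For *Krt7* the PB libraries read 2.15 and 3.11 FPKM in WT mice and 7.73 and 6.32 in *Piezo1*-cKO mice (1.15 ± 0.15, adjusted p = 0.0012), from 45 to 142 reads per library. *Clec4a1* read 15.9 FPKM in both libraries of WT mice and 37.2 and 32.9 in those of *Piezo1*-cKO mice (1.09 ± 0.07, adjusted p = 0.00027). The genotypes did not overlap in either gene. Without WT PB replicate 1 the count fell to 1. Red cell RNA differed between these groups, since the 11 erythroid markers summed to 25.7 to 27.7 FPKM in WT and 1020 to 1144 in *Piezo1*-cKO libraries, with *Hba-a1* as the highest. Granule genes of immature neutrophils summed to 3957 to 3968 FPKM in WT and 5296 to 5497 in *Piezo1*-cKO libraries, and the part of either was not tested. The members farthest below 0, none past the fold threshold, were *Chsy1* at -0.91 ± 0.06 (adjusted p = 0.00027), *Tgm1* at -0.88 ± 0.08 (0.00047) and *Ipo7* at -0.86 ± 0.12 (0.0015).

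In lung, 1 of 145 members tested was higher in *Piezo1*-cKO, against a background of 0.793%, and 0 were lower, against 0.202%. That member was *C5ar2*, with 4.86 and 5.69 FPKM in WT lung and 11.9 in both *Piezo1*-cKO lung libraries (1.04 ± 0.08, adjusted p = 0.00018). Its PB level was 16.5 and 16.9 FPKM in WT and 16.9 and 15.6 in *Piezo1*-cKO mice. After rescaling its log2 fold change was 0.94 (adjusted p = 0.00026), just under the fold threshold, so that the count was 0, as it was without WT lung replicate 1. At an unadjusted p below 0.05, 87 members were higher (60.0%, against 39.0% of all genes) and 14 lower (9.66%, against 18.4%). With edgeR 5 were higher (3.45%, against 3.40%) and 1 lower (0.690%, against 1.96%).

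Changes below 2-fold were frequent in lung. By the adjusted p alone 82 of 145 members were higher in *Piezo1*-cKO lung (56.6%, background 35%) and 13 lower (8.97%, background 15.8%). After rescaling 61 were higher, against 23.7% of all genes, and 17 lower, against 25.04%. With edgeR 66 were higher, against 27.2% of all genes, and 20 lower, against 27.3%. The median was 0.24 in members and 0.09 in all genes, or 0.14 and 0.00 after rescaling. *Igtp* read 9.99 and 9.73 FPKM in WT lung and 19.6 and 18.4 in *Piezo1*-cKO lung (0.88 ± 0.06, adjusted p = 0.00011). *Jun* read 12.03 and 10.1 against 21.2 and 20.8 FPKM (0.87 ± 0.08, adjusted p = 0.0003). *Ltb* read 78.9 and 84.1 against 143 and 140 FPKM (0.79 ± 0.04, adjusted p = 3.7e-05), and *Irf1* 69.2 and 67.5 against 105 and 101 (0.59 ± 0.04). These 4 genes are among the 82. Their *Piezo1*-cKO lung libraries lay between those of WT lung and those of PB, as follows for any rise smaller than the gap to PB. *Krt7* was the farthest below 0 (-0.79 ± 0.09, adjusted p = 0.00064), with 3.34 and 3.40 against 1.499 and 1.55 FPKM. Neutrophil markers summed to 90671 to 94101 FPKM in WT lung and 69194 to 73565 in *Piezo1*-cKO lung, and MHC class II and dendritic cell markers to 282 to 293 and 267 to 274. Higher in *Piezo1*-cKO lung were the sums of monocyte and macrophage markers (863 to 866 FPKM in WT, 973 to 977 in *Piezo1*-cKO) and eosinophil markers (14.1 to 14.4 and 17.0 to 19.1). *Nr4a1* made most of the monocyte and macrophage sum, with means of 651 FPKM in WT and 750 in *Piezo1*-cKO lung. The part of these marker groups was not tested.

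**Figure D3:**
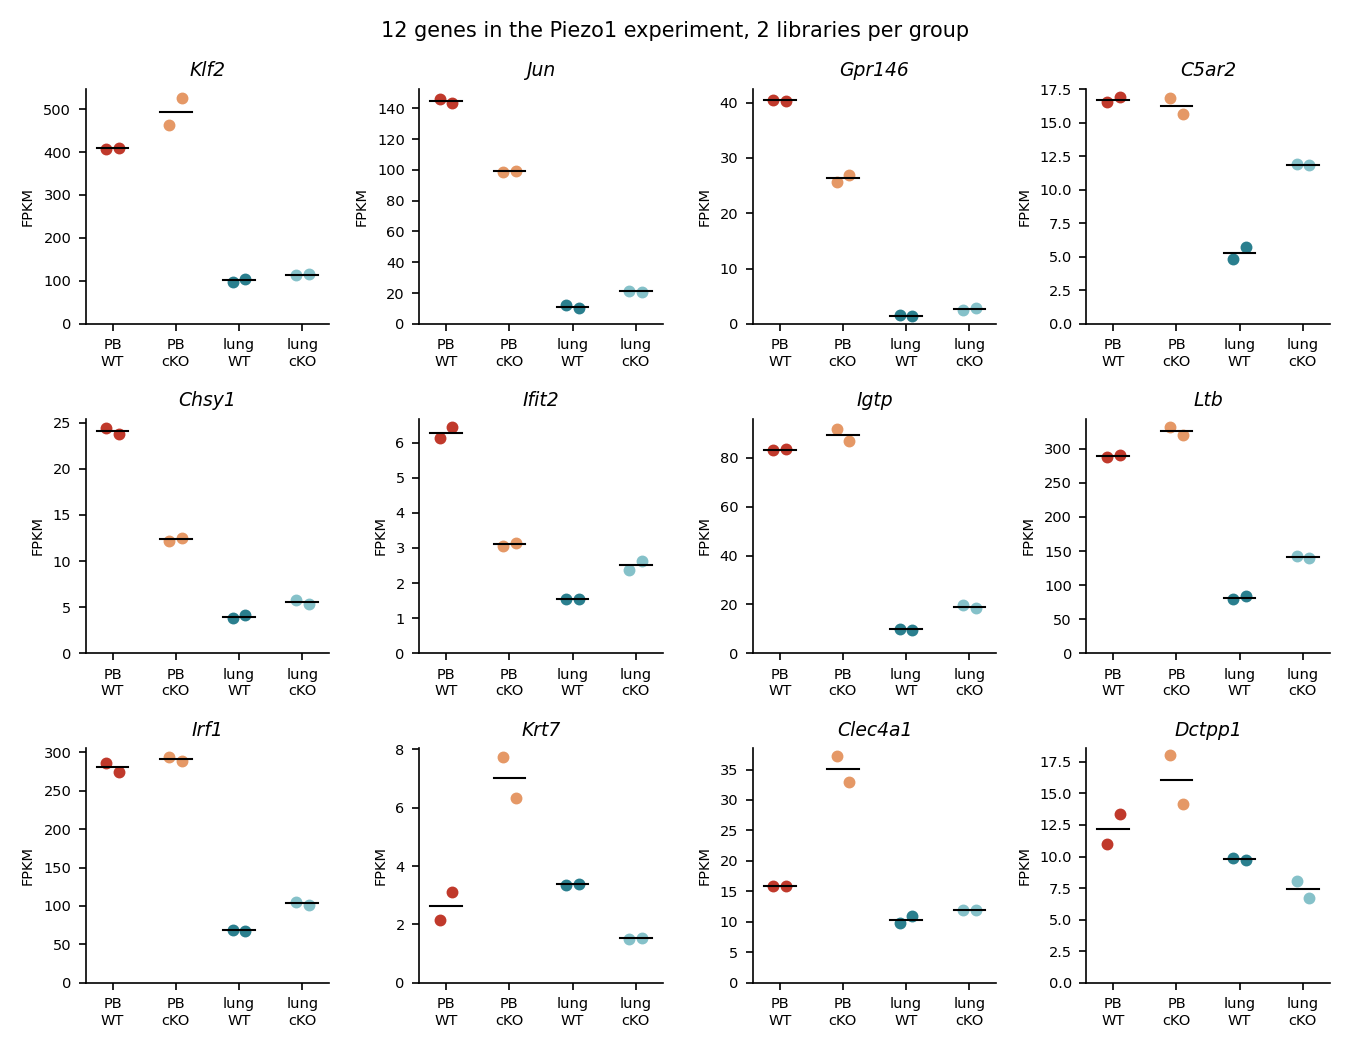
FPKM of 12 members in the 8 libraries of the *Piezo1* experiment (points, 2 per group, black bars are means, y axes start at 0). *C5ar2*, *Igtp*, *Jun*, *Ltb* and *Irf1* were higher in *Piezo1*-cKO lung than in WT lung, *Chsy1* and *Ifit2* were lower in *Piezo1*-cKO PB, and *Krt7* and *Clec4a1* were higher there, by the adjusted p.

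Whether the difference between PB and lung itself depended on genotype was tested as an interaction over all 8 libraries. It was smaller in *Piezo1*-cKO mice in 59 of 158 members (37.3%, background 29.7%) and larger in 16 (10.1%, background 18.5%), by the adjusted p. On rescaled values it was smaller in 43 (27.4%, against 22.8% of all genes) and larger in 29 (18.5%, against 25.7%). The 4 groups share libraries with the comparisons above. Of the 59, 47 were higher in *Piezo1*-cKO lung and 22 lower in *Piezo1*-cKO PB by the adjusted p, 14 of them both, and their median interaction was -0.53. Of the 16, 14 were higher in *Piezo1*-cKO PB and 5 lower in *Piezo1*-cKO lung, with a median of 0.45. The interaction is made of these same differences in PB and lung, so such splits follow in large part from the call. They were not counted over all genes and are a description. With an absolute difference above 1 required, 6 remained among the smaller (*Jun*, *Ipo7*, *Chsy1*, *Ifit2*, *Gpr146* and *C5ar2*) and 1 among the larger (*Krt7*).

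*Jun* lay farthest below 0. Its log2 difference of PB against lung was 3.60 in WT and 2.19 in *Piezo1*-cKO mice (interaction -1.41 ± 0.10, adjusted p = 3.5e-05), with PB levels of 98.7 and 99.5 FPKM in *Piezo1*-cKO mice. *Gpr146* went from 4.07 to 2.90 (-1.18 ± 0.09, adjusted p = 7.5e-05), with 25.7 and 26.9 FPKM in *Piezo1*-cKO PB and 2.55 and 2.79 in *Piezo1*-cKO lung. In both genes PB was lower and lung higher in *Piezo1*-cKO than in WT mice. *Chsy1*, which builds chondroitin sulfate, read 24.4 and 23.8 FPKM in PB of WT mice, 12.2 and 12.5 in PB of *Piezo1*-cKO mice, 3.79 and 4.11 in WT lung and 5.79 and 5.32 in *Piezo1*-cKO lung (-1.32 ± 0.10). *Ifit2*, an interferon-induced protein that binds RNA, read 6.13 and 6.44, 3.06 and 3.15, 1.54 and 1.55, and 2.38 and 2.64 FPKM in the same order (-1.29 ± 0.11). *Ipo7*, a nuclear import receptor, read 2.74 and 2.20, 0.977 and 0.826, 0.491 and 0.542, and 1.16 and 1.24 FPKM (-1.40 ± 0.14), so that the order of PB and lung in *Piezo1*-cKO mice was the opposite of that in WT mice. Its *Piezo1*-cKO libraries held 45 to 85 reads. *C5ar2* had an interaction of -1.08 ± 0.11.

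In the other direction, *Krt7* had an interaction of 1.94 ± 0.19 (adjusted p = 0.00015), with a log2 difference of -0.28 in WT and 1.66 in *Piezo1*-cKO mice. *Clec4a1* (0.89 ± 0.10), *Dctpp1* (0.74 ± 0.18), *Zc3h12d* (0.68 ± 0.16) and *Jade2* (0.60 ± 0.13) followed. The latter 2 passed the filter through PB and were not tested in lung between genotypes, where they read 0.165 to 0.416 FPKM. *Zc3h12d*, related to the RNases that degrade cytokine mRNAs, read 1.14 and 1.11 FPKM in PB of WT mice and 2.66 and 2.17 in that of *Piezo1*-cKO mice, from 64 to 131 reads. For *Klf2*, *Rgs2* and *Tsc22d3* the interactions were 0.09 ± 0.08, 0.08 ± 0.04 and 0.00 ± 0.05, none past the threshold. Rescaled values put the *Rgs2* interaction at 0.20 (adjusted p = 0.0028) and that of *Klf2* at 0.22 (0.049). Over 155 members the 2 genotypes' differences had a Pearson r of 0.80 and a Spearman rho of 0.80, as a description.

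**Figure D4:**
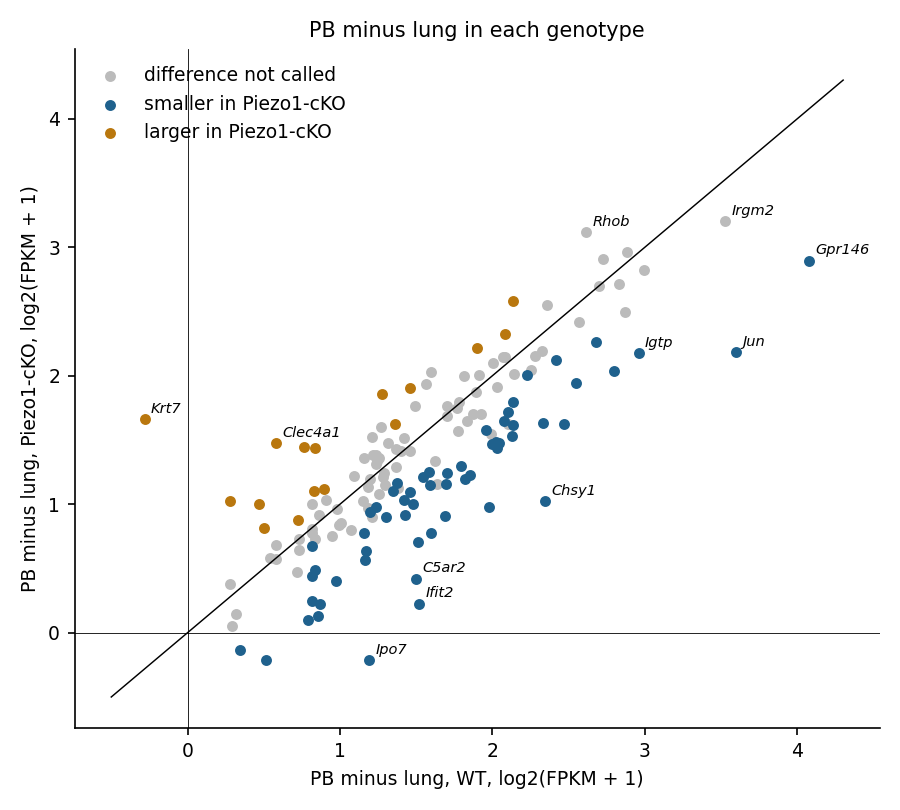
Log2 fold change of PB against lung on log2(FPKM + 1) for each member in WT (x axis) and *Piezo1*-cKO mice (y axis), with the line of equality, coloured by the interaction test. Blue points (smaller difference in *Piezo1*-cKO mice) such as *Jun* and *Gpr146* lie below the line and orange points such as *Krt7* above it.

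The level of some members differed widely between the 2 sets of WT PB libraries, which the tables normalised separately. *Phospho1*, the fifth highest member, read 470, 451 and 596 FPKM in the tissue comparison and 1.07 and 0.558 in the *Piezo1* experiment, from 27 and 16 reads. The log2 ratio of the *Piezo1* experiment to the tissue comparison (mean FPKM plus 1) was -8.12 for *Phospho1*, -4.45 for *Midn*, -4.31 for *Rab11fip4*, -3.98 for *Zfp36l2*, -3.55 for *Lfng* and 1.89 for *Bnip3*. Its median was -0.18 in members and -0.18 in the other 4870 genes with a blood mean of at least 5 FPKM. A ratio below -1 was found in 44 members (27.3%) and in 28.9% of the others. Along the GC content of the longest transcript, which 160 members had, the median ratio was 0.30 in 29 members below 45% GC, 0.05 in 39 from 45 to 50%, -0.25 in 44 from 50 to 55% and -0.90 in 48 at 55% or above. Pearson's r with GC content was -0.38 in members and -0.15 in the other genes, across genes that share libraries. The label and the methods text name different library kits, and the part of the kit was not tested. Levels are therefore compared only within an experiment.

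**Figure D5:**
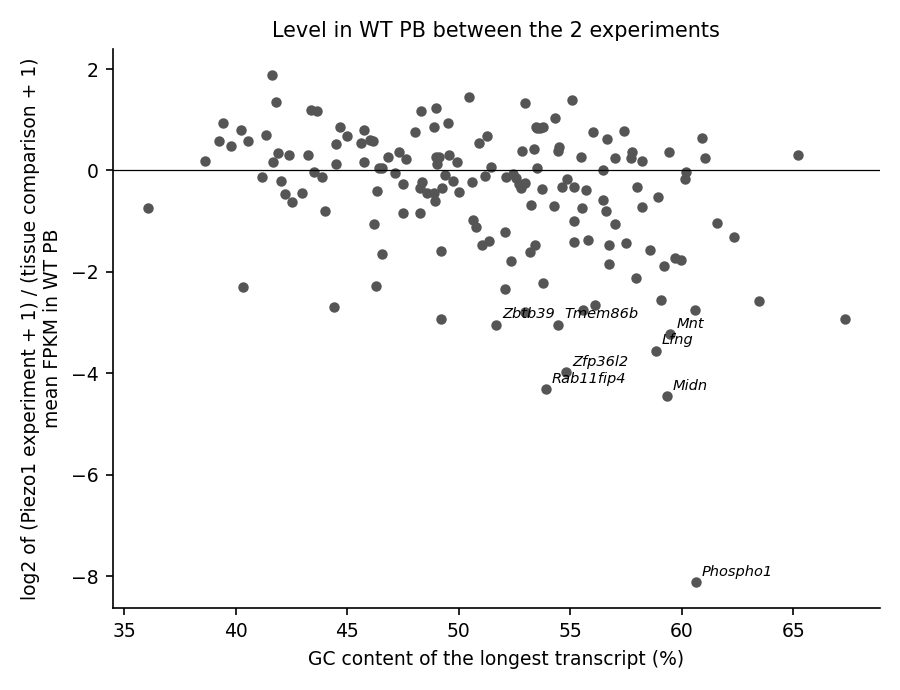
Log2 ratio of the mean FPKM (plus 1) in WT PB of the *Piezo1* experiment to that of the tissue comparison, for 160 members against the GC content (%) of the longest transcript. *Phospho1* lies lowest at -8.12, and the members at 55% GC or above have a median of -0.90.

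In whole lung, removal of neutrophils by anti-Ly6G antibody gave no call among these genes. The 8 neutrophil markers summed to 211 to 269 FPKM in control lungs and 43.4 to 123 in depleted lungs. Of 161 members 159 were matched and 150 tested, and 0 were higher (background 0%) and 0 lower (background 0.00715%) where a call needed a change of over 0.5 on the log2 scale and an adjusted p below 0.05 (limma-trend). At an unadjusted p below 0.05, 13 were higher (8.67%, against 3.53% of all genes) and 19 lower (12.7%, against 7.69%). The median was -0.06 in members and -0.04 in all genes. *Klf2*, which is known also from endothelial cells, read 83.96, 123 and 97.4 FPKM in control and 84.7, 91.6 and 109 in depleted lungs. *Tnfsf14* read 1.85, 1.60 and 2.05 FPKM in control and 1.06, 1.01 and 0.750 in depleted lungs (-0.55 ± 0.12, adjusted p = 0.19). *Tsc22d3* read 23.4, 28.5 and 46.2 FPKM in control and 63.6, 69.3 and 90.3 in depleted lungs (1.20 ± 0.25, adjusted p = 0.18). Control and depleted libraries did not overlap in *Tnfsf14* or *Tsc22d3*, while neither passed the test. These 3 genes were picked after their values were seen.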

How the data were processed

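RNA was sequenced as 150 bp paired-end reads. Per the labels and methods, the authors trimmed with fastp, aligned with HISAT2 to mm10 and counted with HTSeq (versions not given in the sources used here). The deposited value for each gene and library is an FPKM. The authors' tables also hold, for the *Piezo1* experiment, a signal per group, the mean of size-factor scaled reads, which served only to check the recovered reads. The authors' own fold changes, p-values and q-values in these tables were not used. Reads were recovered from the steps of the deposited FPKM in sorted libraries (whole in 100% of detected genes, and matching the authors' group means in 100%, within a relative 1e-06), and the depth of whole lung is unknown. A count of 0 allows up to 3 reads, which covers counting error only.

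Each comparison was fitted across all genes reaching 1 FPKM in 2 or more libraries (3 for whole lung) by limma-trend (limma 3.58.1, R 4.3.3) on log2(FPKM + 1), so fold changes of low genes are understated, with Benjamini-Hochberg adjustment. A call needed a change of over 1 on the log2 scale (0.5 for whole lung) and an adjusted p below 0.05. The interaction used the adjusted p alone. The plan named edgeR for counts, but the tables hold FPKM, so edgeR 4.0.16 on recovered reads was an alternative chosen after seeing the data. Other alternatives were a pseudocount of 0.1, no filter, rescaled FPKM, a replicate block, 1 fit of 8 libraries and each library left out. On simulated data, 95% to 100% of 200 changed genes were recovered, with at most 4.04% of calls false. Those genes had a mean of at least 5 FPKM and were given fold changes above the threshold of a call. The spread between simulated libraries was set beforehand and not taken from the data. How many genes with a lower level, a smaller fold change or a larger spread would be found was not tested.

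Named genes are the 15 highest members, the 15 largest ratios, up to 5 called rises and falls per comparison, those at the thresholds and the members of the gene lists, beside genes said to be picked later and some farthest from 0. The members and lists were chosen with earlier results of these data known. Groups of 2 or 3 libraries are too small for a permutation test to pass 0.05. Some members enter the counts but are not reported here by name.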

Additional observations from a re-analysis of the deposited data

Results flagged for a closer look

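In 10 members the difference between PB and lung differed between genotypes by the interaction test (limma-trend over 8 libraries, adjusted p below 0.05). These are the 5 in each direction that lay farthest from 0. On the log2 scale, *Piezo1*-cKO minus WT, the values were -1.411 for *Jun*, -1.404 for *Ipo7*, -1.317 for *Chsy1*, -1.291 for *Ifit2* and -1.178 for *Gpr146*. In the other direction they were 1.945 for *Krt7*, 0.8943 for *Clec4a1*, 0.7405 for *Dctpp1*, 0.6753 for *Zc3h12d* and 0.6009 for *Jade2*. All 10 kept their sign and an adjusted p below 0.05 on rescaled FPKM. *Jade2* and *Zc3h12d* were below the filter in the lung comparison of genotypes, with lung levels of 0.165 to 0.416 FPKM and PB levels of 1.11 to 2.66 FPKM.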

How the results depend on the processing

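Of the counts under another setting, 102 stayed within 1.5 times and 18 did not, and of those from edgeR 2 did and 6 did not. Rescaled FPKM gave 87 members found, 66 members higher in PB than lung in WT and 61 in *Piezo1*-cKO mice, 0 higher in *Piezo1*-cKO lung and 29 with a larger interaction, and a 3-fold ratio left 25 members. With edgeR on recovered reads, 69 members were higher in PB of *Piezo1*-cKO mice, 4 higher and 3 lower in *Piezo1*-cKO PB, 5 higher and 1 lower in *Piezo1*-cKO lung, and 29 had a larger interaction. A pseudocount of 0.1 gave 4 higher and 1 lower in PB and 5 higher and 1 lower in lung of *Piezo1*-cKO mice. By the adjusted p alone these were 56, 30, 82 and 13. With an absolute difference above 1 the interaction was smaller in 6 and larger in 1. With each library left out, members found ranged from 152 to 162, members higher in PB from 104 to 116 (WT) and 97 to 108 (*Piezo1*-cKO), higher in *Piezo1*-cKO PB from 1 to 3 (1 without WT PB replicate 1), higher in *Piezo1*-cKO lung from 0 to 1 (0 without WT lung replicate 1), and interactions from 46 to 57 smaller and 12 to 17 larger. A group left with 1 library was assumed to vary like the others. The cause of these shifts was not tested. The replicate numbers did not pair the samples (correlations of deviations from -0.02 to 0.07), and with the number as a block 117 and 107 members were higher in PB, 55 interactions were smaller and 17 larger, and no count moved by over 1.5 times. Thin reads limit *Piezo1* and members below the filter.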
